A study of Mus musculus with 18 samples.

Results

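Smooth muscle cells and pericytes are the mural cells that wrap the vessels of the heart, and 10 genes that mark them were followed in the left ventricles of mORF4/NBDY knockout mice and of wild-type mice. The product of the gene, a small peptide also called NoBody, associates with proteins that remove the cap of mRNAs. The genes were chosen by symbol as mural cell markers: Acta2, Tagln, Myh11, Cnn1 and Mylk for the contractile apparatus, and Rgs5, Pdgfrb, Cspg4, Kcnj8 and Notch3 for signalling at the pericyte and smooth muscle surface. All 10 were found among the 10597 genes of the deposited tables, and none was at 0 in any of the 18 libraries. The hearts came from 5 knockout mice (hearts 6 to 10) and 4 wild-type mice (hearts 1 to 4), all C57BL/6 males aged 20 weeks. Each heart gave a poly-A RNA library and a library of ribosome footprints, the mRNA fragments that translating ribosomes protect. The sources used here do not give how the knockout was made or whether the mice were littermates.

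Mural cells contract through smooth muscle actin and myosin, which bind once the myosin light chain is phosphorylated by the kinase that Mylk encodes. Pericytes are held on the endothelium by PDGF-B, which the endothelium releases and the receptor Pdgfrb reads, and the identity of arterial smooth muscle depends on Notch3, which binds Jagged ligands on neighbouring cells. Many contractile genes are switched on by the serum response factor SRF and its partners myocardin and the MRTFs, which act through CArG boxes in their promoters. In whole ventricle tissue, fewer cells of a type and less RNA per cell cannot be told apart.

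The upstream sequence is shown for the 4 members that changed in RNA and have an entry in the RefSeq promoter table (7 of the 10 members do; build GRCm38.p6), because Acta2 fell and the other 3 rose. Each run holds the 250 bases before the start given in that promoter table, read 5′ to 3′ on the gene's strand. For Acta2 that start lies inside the gene's annotated span (34240336 to 34255585), so most of its run, with both marked boxes, is within the gene. The Notch3 run reaches a few bases into the span of its gene. Capitals in Acta2 mark CArG boxes in which 1 base of the A/T core may differ, and capitals in Cspg4 and Notch3 mark GC boxes (GGGCGG on either strand). Acta2 lies on chromosome 19, minus strand (chr19:34255374-34255623), Cspg4 on chromosome 9, plus strand (chr9:56864854-56865103), Kcnj8 on chromosome 6, minus strand (chr6:142571615-142571864), and Notch3 on chromosome 17, minus strand (chr17:32166891-32167140).
Acta2: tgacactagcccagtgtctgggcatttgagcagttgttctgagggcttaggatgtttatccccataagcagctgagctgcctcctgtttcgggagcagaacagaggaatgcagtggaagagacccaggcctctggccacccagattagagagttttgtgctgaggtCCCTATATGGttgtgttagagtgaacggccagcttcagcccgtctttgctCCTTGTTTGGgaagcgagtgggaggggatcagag
Cspg4: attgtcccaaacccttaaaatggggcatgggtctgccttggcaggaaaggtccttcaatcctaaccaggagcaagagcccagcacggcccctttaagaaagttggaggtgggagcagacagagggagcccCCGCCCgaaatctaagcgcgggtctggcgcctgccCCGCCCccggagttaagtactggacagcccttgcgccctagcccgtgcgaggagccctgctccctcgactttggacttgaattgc
Kcnj8: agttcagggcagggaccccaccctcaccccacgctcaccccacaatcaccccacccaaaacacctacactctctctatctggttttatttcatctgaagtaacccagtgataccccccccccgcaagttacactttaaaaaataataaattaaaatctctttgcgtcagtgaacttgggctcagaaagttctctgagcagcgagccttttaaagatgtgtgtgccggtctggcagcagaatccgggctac
Notch3: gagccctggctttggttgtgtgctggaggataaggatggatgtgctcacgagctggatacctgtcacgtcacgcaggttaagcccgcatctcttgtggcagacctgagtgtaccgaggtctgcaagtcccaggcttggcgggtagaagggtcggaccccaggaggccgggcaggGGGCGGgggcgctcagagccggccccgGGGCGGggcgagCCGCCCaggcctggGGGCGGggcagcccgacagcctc

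The Acta2 run holds 2 CArG boxes with 1 other base, CCCTATATGG from base -84 to -75 and CCTTGTTTGG from base -34 to -25, counted back from the start in the promoter table. A box of this kind was found in 8.59% of the 32851 runs of this length in the table, and a box with a pure A/T core in 1.47%. No other member of the 7 had a box of this kind in its 250 bases. Tagln, Myh11 and Pdgfrb have no entry and were not searched, and the Mylk run lies inside the annotated span of its gene. Whether CArG boxes are particular to Acta2 among the members was therefore not settled. Cspg4 held 2 GC boxes and Notch3 held 4, against 32.7% of all runs with at least 1, and the search covered both strands. Notch3 was 68.8% G and C, Cspg4 60.4%, Acta2 53.6% and Kcnj8 49.2%, beside a median of 52.4% over the table. Acta2, Cnn1, Mylk, Rgs5 and Kcnj8 had no GC box in this window. These matches are letters in a window and were not linked to binding.

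Values are normalized reads, the authors' gene counts divided by a size factor of the library, and they set the same gene side by side across hearts. As they are not divided by transcript length, levels of different genes were not compared. Fold changes are knockout over wild type on the log2(value + 1) scale, from limma with Benjamini-Hochberg adjustment over all genes tested, and a gene was called at an adjusted p below 0.05. A gene said to rise or fall by an amount did so by that much on the log2 scale. The targeted gene followed the labels: Nbdy footprints were 10.9 to 19.0 normalized reads in the 5 knockout hearts and 107 to 355 in the 4 wild-type hearts, and Nbdy RNA was 61.8 to 90.0 in knockout and 100 to 116 in wild type. RNA libraries held 15.8 to 20.2 M reads (M, 1e6) in knockout and 11.2 to 12.4 M in wild type, and footprint libraries 22.9 to 40.8 M in knockout and 6.67 to 36.7 M in wild type. The scarcest member, Cnn1, had at least 76 RNA reads in a knockout library and 46 in a wild-type library.

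In RNA the markers did not move as a block. Of the 10, 5 rose in knockout (Tagln, Pdgfrb, Cspg4, Kcnj8 and Notch3), 1 fell (Acta2) and 4 did not pass the test (Myh11, Cnn1, Mylk and Rgs5). Among all 10580 genes tested in RNA, 24.3% passed as higher in knockout and 25.1% as lower, so the 6 members called, of 10, stand beside a share of 49.4%. By the adjusted p of the authors' deposited table, 49.1% of genes pass in RNA, with the same 6 members among them. The median log2 fold change was 0.23 over the members and 0.012 over all genes. Of the 5 members at the cell surface or in signalling, 4 rose, while of the 5 contractile genes 1 rose and 1 fell.

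Pdgfrb, the receptor that ties pericytes to the endothelium, had RNA values of 1294, 1162, 1296, 1252 and 1171 normalized reads in knockout hearts 6 to 10, against 916, 944, 886 and 870 in wild-type hearts 1 to 4. Every knockout heart lay above every wild-type heart. The means were 1235 ± 64.9 (SD, n = 5) in knockout and 904 ± 32.8 (SD, n = 4) in wild type, and limma's log2 estimate was 0.45 ± 0.055 (SE; adjusted p = 4.63e-05).

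Notch3, the Notch receptor of vascular smooth muscle, had RNA values of 1350, 1241, 1185, 1214 and 1353 in knockout hearts 6 to 10, against 979, 945, 945 and 913 in wild-type hearts 1 to 4. The groups did not overlap, and the wild-type hearts lay close together with a coefficient of variation of 2.83%. In limma's fit it stood at a log2 difference of 0.42 ± 0.056 (SE; adjusted p = 8.83e-05).

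Kcnj8 encodes Kir6.1, the pore of the ATP-sensitive potassium channel of vascular smooth muscle. Its RNA was 580, 504, 657, 580 and 551 in knockout hearts 6 to 10, against 406, 427, 446 and 403 in wild-type hearts 1 to 4. The lowest knockout heart stood above the highest wild-type heart, and limma's log2 estimate was 0.45 ± 0.077 (SE; adjusted p = 0.000583).

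Cspg4 encodes NG2, the chondroitin sulfate proteoglycan on the pericyte surface. Its RNA was 794, 679, 599, 645 and 580 in knockout hearts 6 to 10, against 511, 441, 429 and 513 in wild-type hearts 1 to 4. Heart 6 was the highest and heart 10 the lowest of the knockouts, and all 5 lay above the wild types. In limma's fit it stood at a log2 difference of 0.47 ± 0.097 (SE; adjusted p = 0.00176).

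Tagln, which encodes the actin-binding protein transgelin (SM22), was the contractile gene that rose. Its RNA was 431, 431, 437, 396 and 444 in knockout hearts 6 to 10, against 295, 346, 260 and 302 in wild-type hearts 1 to 4. The groups did not overlap, and limma's log2 estimate was 0.51 ± 0.084 (SE; adjusted p = 0.000372). Tagln (chromosome 9, 45929628 to 45936058, GRCm38) overlaps Pcsk7 in the annotation, and the RNA kit does not mark strand, so reads from the overlap cannot be assigned. Pcsk7 RNA was 309 ± 32.2 (SD, n = 5) in knockout and 225 ± 11.4 (SD, n = 4) in wild type, a log2 fold change of 0.45 (limma adjusted p = 0.00143).

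Acta2, which encodes smooth muscle alpha-actin, was the member that fell. Its RNA was 4476, 3920, 4184, 3734 and 3820 in knockout hearts 6 to 10, against 7075, 5150, 5206 and 4292 in wild-type hearts 1 to 4. The groups overlapped, since knockout heart 6 lay above wild-type heart 4, and wild-type heart 1 stood well above the rest. The means were 4027 ± 303 (SD, n = 5) in knockout and 5431 ± 1173 (SD, n = 4) in wild type, and limma's log2 estimate was -0.41 ± 0.12 (SE; adjusted p = 0.0117). Without wild-type heart 1 it was -0.28, and Acta2 kept its call without any single heart, at adjusted p of at most 0.0273.

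Actin genes are near-identical in their coding sequence, so the values of Acta2 and of the other actins are uncertain where reads match a paralogue. Cardiac actin, Actc1, had 202838 to 257478 normalized RNA reads in knockout and 184897 to 215528 in wild type and did not pass (log2 fold change 0.16, limma adjusted p = 0.173). Skeletal actin, Acta1, fell by 0.89 (limma adjusted p = 0.0239). Actg2, the enteric smooth muscle actin, rose by 0.60 (limma adjusted p = 0.000462), and the cytoplasmic actins Actb and Actg1 were at -0.17 and -0.15 without passing. The values of the actins thus differed in direction from each other in the same libraries. Mean Actg2 footprints were 11595 in knockout and 5912 in wild type, beside RNA of 975 and 644. Those of Actg1 were 65.2 and 73.1, beside RNA of 6010 and 6627. How far reads of paralogues enter these values was not tested.

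The other 4 members overlapped between genotypes in RNA. Myh11, the smooth muscle myosin heavy chain, had 1640, 1677, 1678, 1575 and 1892 in knockout hearts 6 to 10, against 1633, 2008, 1570 and 2060 in wild-type hearts 1 to 4. Its log2 fold change was -0.095 with a 95% interval of -0.29 to 0.097 (limma adjusted p = 0.392). Among other myosin heavy chains that could share reads with it, Myh10 and Myh14 fell by 0.43 and 0.83 (limma adjusted p = 0.00138 and 0.000259), and Myh9, Myh6 and Myh7 were at -0.20, -0.25 and -0.12 without passing.

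Mylk, the myosin light chain kinase, had 670, 634, 679, 644 and 733 in knockout hearts 6 to 10, against 678, 757, 686 and 752 in wild-type hearts 1 to 4. The interval of its log2 fold change, -0.23 to 0.042, lies wholly below the smallest rise among the 5 called members. Mylk and Notch3 each overlap 2 further annotated genes that were not analysed here.

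Cnn1, calponin, which binds actin and holds back actomyosin, had 112, 86.7, 78.9, 62.9 and 90.9 in knockout hearts 6 to 10, against 64.0, 162, 91.2 and 86.6 in wild-type hearts 1 to 4. Wild-type heart 2 was the highest of the 9, and without it the log2 fold change turned to 0.090, against -0.16 with all hearts (limma adjusted p = 0.732 and 0.598). Rgs5, a regulator of G protein signalling that is abundant in pericytes, had 1619, 1672, 950, 1030 and 1520 in knockout hearts 6 to 10, against 1453, 1678, 1133 and 1015 in wild-type hearts 1 to 4. Its hearts spread widely within each genotype, with a coefficient of variation of 25.1% in knockout and 22.9% in wild type. The interval of its log2 fold change ran from -0.39 to 0.45, which still includes the value of Pdgfrb.

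**Figure D1:**
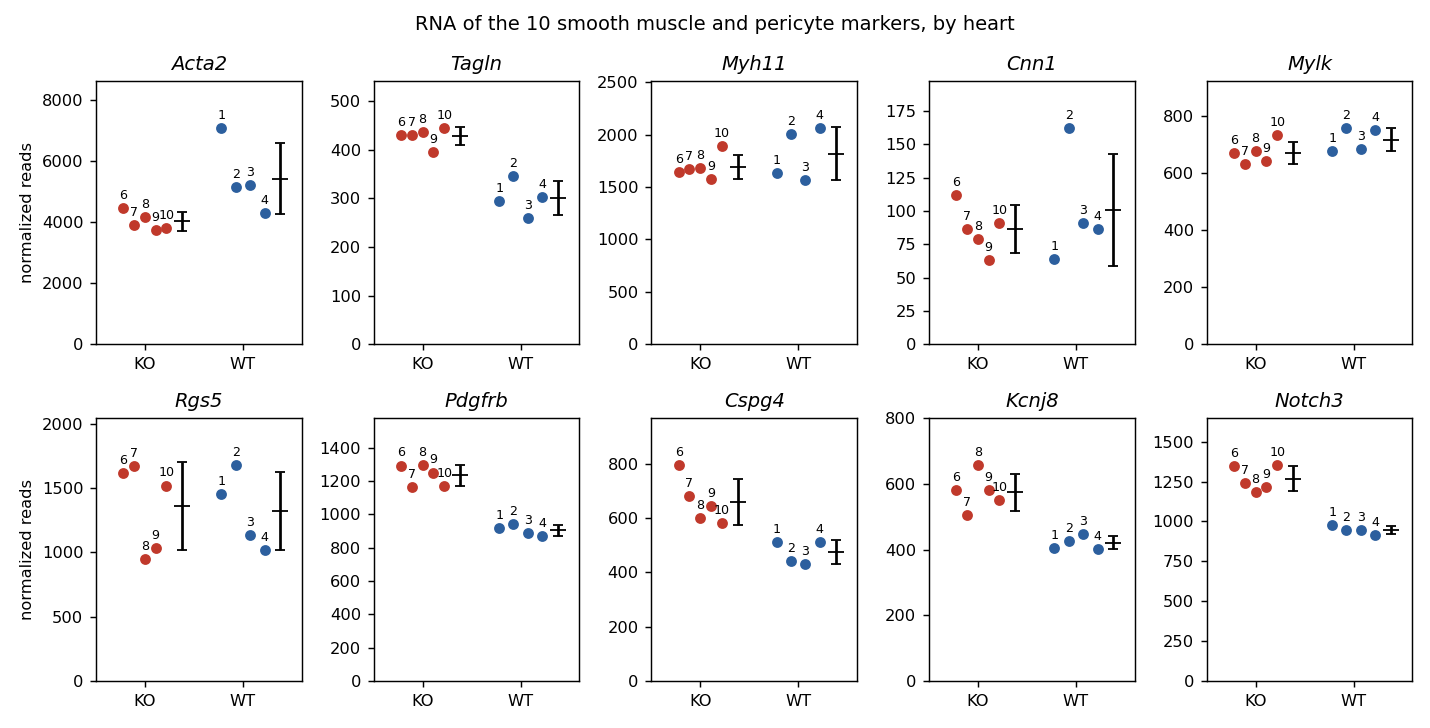
RNA level of each marker (y axis, normalized reads, from 0) in knockout (red, left) and wild-type (blue, right) hearts; each point is a heart with its number, and the bar beside the points is the mean ± SD (n = 5 knockout, n = 4 wild type). All 5 knockout hearts lie above all 4 wild-type hearts for Tagln, Pdgfrb, Cspg4, Kcnj8 and Notch3, and the groups overlap for the other 5 genes.

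The separation of these 5 members can be read against the whole table: every knockout heart lay above every wild-type heart for 19.8% of the genes tested in RNA, and the groups were free of overlap in either direction for 40.5%. All knockout RNA libraries were deeper than all wild-type ones, and no batch is given in the labels, so any effect of preparing or sequencing the RNA samples cannot be told apart from genotype. The summed RNA of 11 cardiomyocyte markers was also lower in every knockout heart, at 2008796 to 2241665 normalized reads in knockout and 2270563 to 2588406 in wild type. Its largest term was Myh6, with means of 838600 in knockout and 1002000 in wild type, which did not pass (limma adjusted p = 0.100). Of the 11, 7 had log2 fold changes below 0, 5 of them called, and 4 above 0, 2 of them called. The part of this sum in the result was not tested.

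Marker genes of other cell types moved in mixed directions in RNA, where 49.4% of all genes were called. Of 10 endothelial markers 3 rose and 3 fell, with Egfl7 at 0.53, Tie1 at 0.34, Emcn at -0.67 and Cdh5 at -0.50, and their sum was 24723 to 28231 in knockout and 26087 to 30075 in wild type. Of 10 fibroblast markers 2 rose, Gsn by 0.49 and Col1a2 by 0.49, with a sum of 33566 to 42788 in knockout and 25832 to 34970 in wild type. Of 11 cardiomyocyte markers 2 rose and 5 fell. Of 8 measured macrophage markers 2 rose and 2 fell, with a sum of 3744 to 5213 in knockout and 4288 to 4765 in wild type. The list drawn up for myofibroblasts had 5 measured genes and 1 call, the fall of Acta1 named above. As Acta1 is the skeletal muscle actin, neither that call nor the sum of the list is a measure of myofibroblasts. The sum, most of it Acta1, was 7020 to 21118 in knockout and 17777 to 27012 in wild type. Cnp, the measured gene of 6 Schwann cell markers, rose by 0.93 (limma adjusted p = 0.00386), with 62 to 107 in knockout and 32 to 66 in wild type. No gene of these lists that is in the tables was at 0 in any library, and the part of these cells in the markers' values was not tested. The summed RNA of the 10 mural markers themselves, 11133 to 12966 in knockout and 11206 to 14010 in wild type, overlapped.

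Ribosome footprints of the markers did not pass the test in either direction. None of the 10 was called, 0.02% of the 9976 genes tested in footprints were, and no member had an unadjusted p below 0.05, which 5.06% of all genes had. The authors' deposited table calls none of them either, and 0.0583% of its genes. edgeR and DESeq2 on whole footprint reads gave the same count of 0. In simulated data with 200 genes changed, limma called a log2 change of 0.5 for 11.3% of 62 genes in footprints and for 69.4% in RNA. In footprints edgeR called 9.68% of the 62 and DESeq2 33.9%. Far fewer genes changed there than were called in RNA here, so these shares are a rough guide. A change of the size seen in RNA could thus be missed in footprints. The genotypes overlapped for all 10 members, while 1.6% of all genes were free of overlap. The median log2 fold change of the members was 0.083 in footprints, beside -0.0027 over all genes. Summed footprints of the cardiomyocyte markers overlapped, at 3676476 to 4073377 in knockout and 3617336 to 3756717 in wild type. Those of the 5 genes on the myofibroblast list were 16095 to 43918 in knockout and 49703 to 84431 in wild type, and none of the 5 passed. Most of that sum was Acta1, the skeletal actin, with means of 24010 in knockout and 55020 in wild type. Means of Postn, Fn1, Comp and Ltbp2 were 2298, 2656, 1103 and 448 in knockout, against 2738, 2685, 1135 and 501 in wild type. The part of these sums in the result was not tested.

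Acta2 footprints were 12719, 9213, 9646, 8452 and 8842 normalized reads in knockout hearts 6 to 10, against 15130, 12173, 11967 and 8763 in wild-type hearts 1 to 4. Heart 1 was the highest of the wild types and heart 4 the lowest, as in RNA. In limma's fit it stood at a log2 difference of -0.29 ± 0.15 (SE; adjusted p = 0.851), with an interval of -0.60 to 0.032 that includes the RNA value of -0.41.

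Pdgfrb footprints were 3933, 3957, 4406, 3419 and 3091 in knockout hearts 6 to 10, against 3389, 3389, 3644 and 3588 in wild-type hearts 1 to 4. Knockout hearts 6 to 8 lay above the wild types and hearts 9 and 10 reached down among or below them. The log2 fold change was 0.093 with an interval of -0.16 to 0.34 (limma adjusted p = 0.896). This leaves out the RNA value of 0.45 but overlaps the RNA interval of 0.33 to 0.57. RNA values have errors of their own, so the direct test of footprints against RNA is that of efficiency, given below.

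Tagln footprints were 2081, 1358, 1279, 1397 and 1738 in knockout hearts 6 to 10, against 1707, 1795, 1482 and 1714 in wild-type hearts 1 to 4. The interval, -0.43 to 0.20, leaves out its RNA value of 0.51 and lies below the RNA interval of 0.33 to 0.70. Kcnj8 footprints were 958, 985, 858, 1032 and 944 in knockout hearts 6 to 10, against 796, 804, 1107 and 951 in wild-type hearts 1 to 4. Its interval of -0.22 to 0.37 ends below the RNA value of 0.45 but overlaps the RNA interval of 0.28 to 0.61.

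Cspg4 footprints were 2471, 2228, 1683, 1822 and 1410 in knockout hearts 6 to 10, against 1576, 1802, 1808 and 1693 in wild-type hearts 1 to 4. Notch3 footprints were 1983, 1926, 1724, 1266 and 1414 in knockout hearts 6 to 10, against 1365, 1129, 1654 and 1323 in wild-type hearts 1 to 4. Hearts 6 and 7 were the highest knockouts for both genes. The intervals were -0.19 to 0.46 for Cspg4 and -0.060 to 0.61 for Notch3. That of Notch3 included its RNA value of 0.42. That of Cspg4 ended just short of its RNA value of 0.47 but overlapped the RNA interval of 0.26 to 0.68. In efficiency, the direct test of this difference, Cspg4 did not pass (-0.34, limma adjusted p = 0.271).

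Myh11 footprints were 2451, 1300, 1664, 1403 and 1748 in knockout hearts 6 to 10, against 1302, 1315, 1448 and 1430 in wild-type hearts 1 to 4. The log2 fold change was 0.28 (limma adjusted p = 0.851) and 0.15 without heart 6. Mylk footprints ranged from 789 to 1188 in knockout and 879 to 1037 in wild type, and Cnn1 footprints from 156 to 305 in knockout and 140 to 276 in wild type. Rgs5 footprints ranged from 7412 to 11041 in knockout and 7770 to 10761 in wild type. The members' spread was wider in footprints than in RNA among the knockouts, with a median coefficient of variation of 18.7% against 7.28%, and about equal among the wild types, at 10.6% in each assay.

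**Figure D2:**
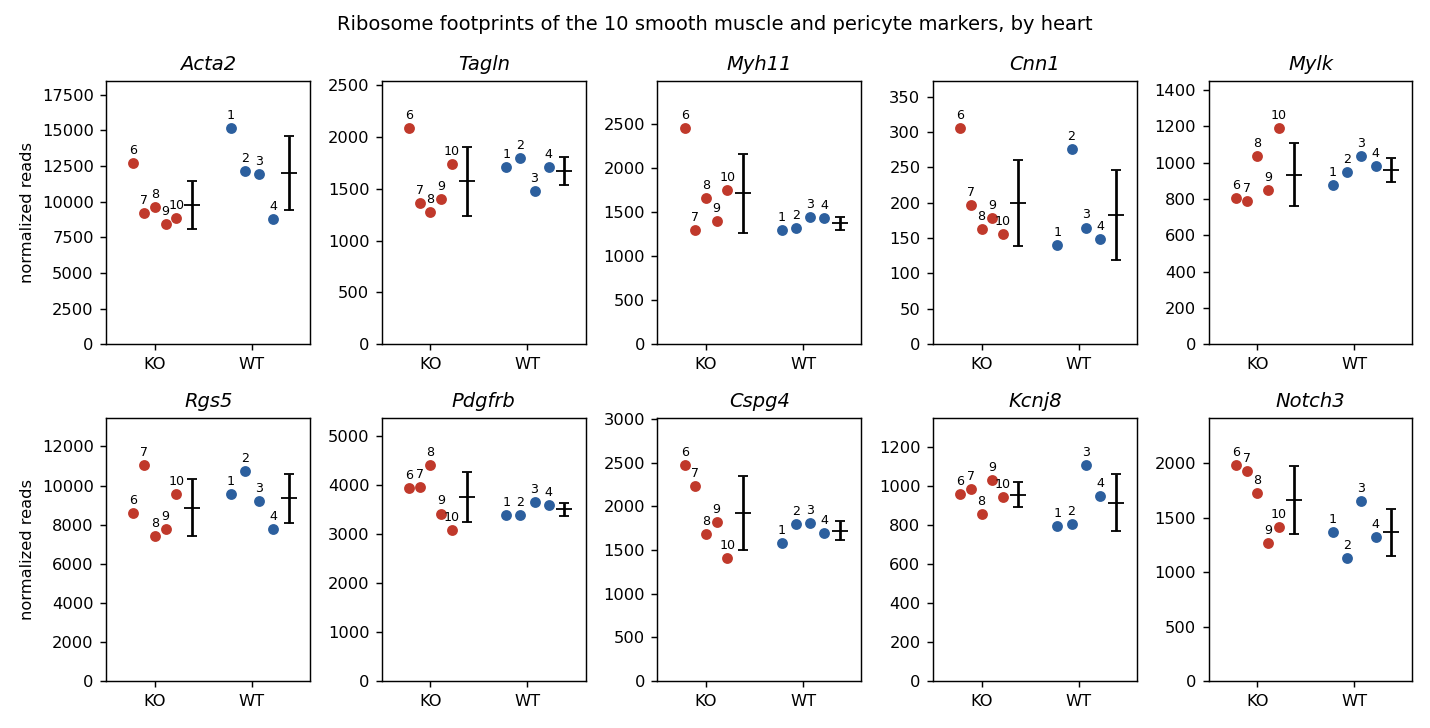
Ribosome footprint level of each marker (y axis, normalized reads, from 0) in knockout (red, left) and wild-type (blue, right) hearts; each point is a heart with its number, and the bar beside the points is the mean ± SD (n = 5 knockout, n = 4 wild type). The genotypes overlap for all 10 genes, and knockout heart 6 is the highest of the knockouts for 6 of them.

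Hearts differed from each other in ways that the footprint and RNA libraries of the same heart shared for some members. The same count over all genes was not made. Among the knockouts the highest heart was the same in both assays for 6 of 10 members, and the lowest for 4. Among the wild types the highest heart was shared for 5 of 10 members, and the lowest for 5, not all of them the same members. Cnn1 was highest in heart 6 among knockouts and in heart 2 among wild types in both assays. Rgs5 was highest in hearts 7 and 2 and lowest in hearts 8 and 4, again in both. Knockout heart 6 gave the highest footprints for Acta2, Tagln, Myh11, Cnn1, Cspg4 and Notch3, and its footprint library was the deepest of the series at 40.8 M reads. The part of that depth in these values was not tested.

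Translational efficiency, the ratio of footprint to RNA value within a heart, was tested over the 18 libraries as an interaction of genotype with assay, with no term for the heart. It fell for 2 of the 10 members, Tagln and Pdgfrb, and rose for none, while 6.57% of the 10549 genes tested were lower and 7.5% higher. The median log2 fold change was -0.13 over the members and -0.028 over all genes. As RNA values enter the ratio, an efficiency change and an RNA change of the same gene are not independent measurements, and the limit on RNA libraries named above holds here too.

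Tagln efficiency was 4.83, 3.15, 2.93, 3.53 and 3.91 in knockout hearts 6 to 10, against 5.79, 5.18, 5.71 and 5.68 in wild-type hearts 1 to 4. Every knockout heart lay below every wild-type heart, a pattern that 8.29% of all genes showed. In limma's fit it stood at a log2 difference of -0.63 ± 0.17 (SE; adjusted p = 0.0235). Leaving out heart 1, 4, 7 or 8 ended the call, with adjusted p of 0.0666, 0.0636, 0.0594 and 0.0604, with estimates of -0.62 to -0.55. Tagln RNA is the denominator of this ratio, so the limit from its overlap with Pcsk7, given above, holds here too.

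Pdgfrb efficiency was 3.04, 3.40, 3.40, 2.73 and 2.64 in knockout hearts 6 to 10, against 3.70, 3.59, 4.11 and 4.12 in wild-type hearts 1 to 4. The groups did not overlap, and limma's log2 estimate was -0.36 ± 0.12 (SE; adjusted p = 0.0497). The call is at the edge of the threshold: it was lost when hearts entered as a replicate block (adjusted p = 0.0563; 14.9% of genes called in that fit) and without heart 1, 2, 3, 4, 6, 7, 9 or 10 (adjusted p from 0.053 to 0.143), while the estimate was -0.36 with the block and -0.40 to -0.31 without single hearts. The authors' deposited table, whose efficiency fold change runs wild type over knockout, gives 0.38 for Pdgfrb and 0.63 for Tagln, with adjusted p of 0.0244 and 0.0141, where 16.0% of genes pass. That table tags both genes as buffered, a class given to 15.2% of its genes, and the other 8 members as unchanged.

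Kcnj8 efficiency was 1.65, 1.96, 1.31, 1.78 and 1.71 in knockout hearts 6 to 10, against 1.96, 1.89, 2.48 and 2.36 in wild-type hearts 1 to 4. Knockout heart 7 reached into the wild-type range, and the log2 fold change of -0.37 did not pass (95% interval -0.67 to -0.073, limma adjusted p = 0.0922). Cspg4 and Notch3 were at -0.34 and -0.15, with intervals of -0.74 to 0.065 and -0.51 to 0.22. The contractile genes other than Tagln lay on the other side of 0. Myh11 was at 0.38 (-0.036 to 0.79), Cnn1 at 0.30 (-0.51 to 1.11), Acta2 at 0.12 (-0.33 to 0.58) and Mylk at 0.037 (-0.28 to 0.35), and none of these passed. Rgs5 was at -0.11 (-0.66 to 0.44).

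**Figure D3:**
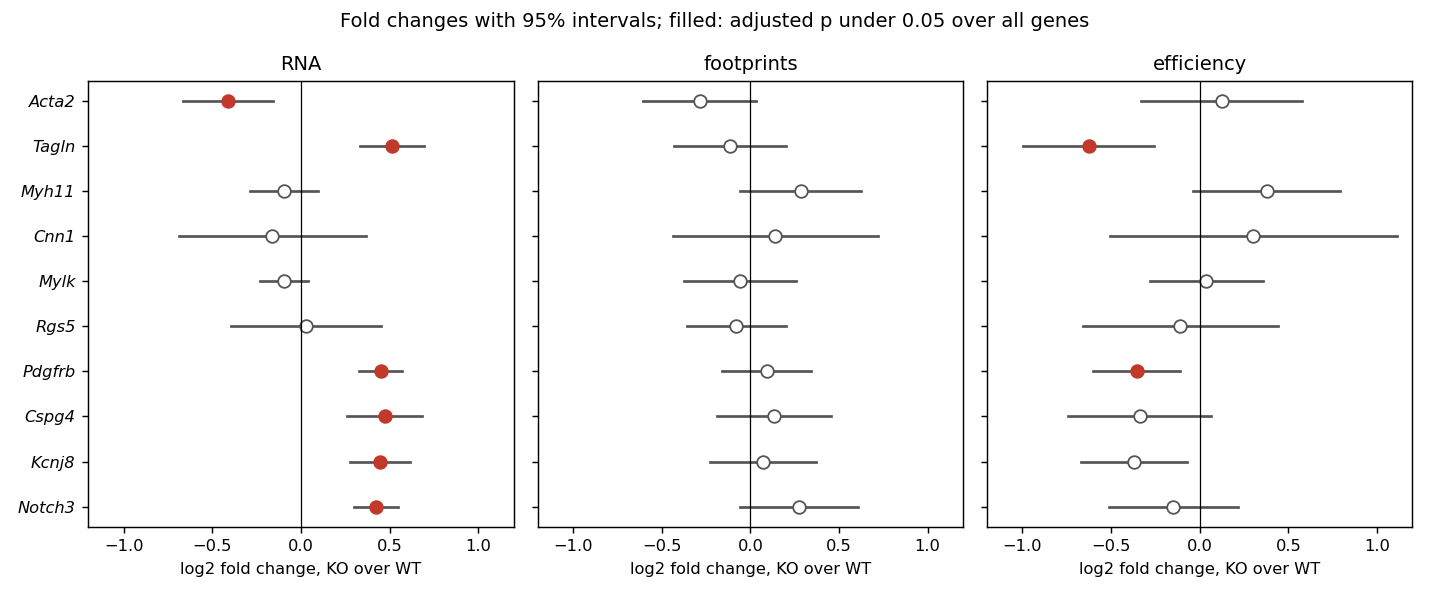
Log2 fold change, knockout over wild type (x axis), of each marker (y axis) in RNA, footprints and efficiency; points are limma estimates, lines 95% intervals, and filled points passed an adjusted p below 0.05 over all genes. In RNA 5 markers lie at 0.42 to 0.51 and Acta2 at -0.41, in footprints all 10 intervals include 0, and in efficiency Tagln (-0.63) and Pdgfrb (-0.36) are filled.

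Upstream of the contractile genes, RNA of Srf, Myocd, Mrtfa and Mrtfb fell, while their footprints did not pass. Of 14 measured genes of that list 4 fell and 2 rose in RNA, beside the 49.4% of all genes called. Srf RNA was 1702 ± 244 (SD, n = 5) in knockout and 3070 ± 277 (SD, n = 4) in wild type, or -0.86 ± 0.10 on the log2 scale (SE; limma adjusted p = 4e-05). Mrtfb, a cofactor that actin polymerization releases to SRF, was at -0.62 (limma adjusted p = 1.96e-05) and Myocd, the smooth and cardiac muscle cofactor myocardin, at -0.54 (limma adjusted p = 0.00247). Foxo4, a forkhead factor known to restrain myocardin, rose by 0.91 (limma adjusted p = 3.17e-06), and Csrp1, a LIM protein of smooth muscle, by 0.27 (limma adjusted p = 0.0131). Footprints of Srf were 450 ± 72.2 (SD, n = 5) in knockout and 422 ± 119 (SD, n = 4) in wild type, with log2 fold changes of 0.12 for Srf, 0.053 for Mrtfb, 0.30 for Myocd and 0.017 for Foxo4. In efficiency 3 genes rose, Srf by 0.98, Myocd by 0.84 and Mrtfb by 0.68, and 3 fell, Foxo4 by 0.89, Csrp1 by 0.56 and Fhl2 by 0.39. Of all genes, 14.1% were called in efficiency. Srf and Myocd are also expressed in cardiomyocytes, so their values are not those of mural cells alone.

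Other contractile genes also moved in both directions. Of 25 measured, 6 rose and 10 fell in RNA, beside the 49.4% of all genes called. Flna, the actin cross-linker filamin A, rose by 0.62 ± 0.062, Actg2 as given above with its uncertainty, and Aoc3, an amine oxidase of vascular smooth muscle, by 0.54 (SE; limma adjusted p = 1.1e-05 for Flna and 0.00819 for Aoc3). Cald1, caldesmon, which holds back actomyosin like calponin, fell by 0.65 ± 0.081, and Ppp1r12a, the targeting subunit of myosin phosphatase, which opposes Mylk, fell by 0.42 ± 0.066 (SE; limma adjusted p = 5.27e-05 and 0.000275). None of the 25 passed in footprints. In efficiency 4 rose and 1 fell, beside the 14.1% of all genes called.

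Of 18 measured pericyte and mural cell genes, 4 rose and 5 fell in RNA, beside the 49.4% of all genes called. Des, desmin, which heart muscle also expresses, rose by 0.42, and Higd1b, a mitochondrial protein gene enriched in pericytes, by 0.79 (limma adjusted p = 0.000384 and 0.00368). Vtn, vitronectin, was at -0.31, Gucy1b1, a subunit of the nitric oxide receptor guanylate cyclase, at -0.27, and Rgs4, another regulator of G protein signalling, at -0.41 (limma adjusted p = 0.00221, 0.00456 and 0.0135). Abcc9, the sulfonylurea receptor that partners Kir6.1, is singled out after its values were seen: its RNA was at 0.14 and its footprints at 0.33, neither past the test (limma adjusted p = 0.195 and 0.851). Measured in whole ventricle, these Abcc9 values need not come from mural cells. In footprints none of the 18 passed, and in efficiency 1 rose, Gucy1b1 by 0.35, where 14.1% of all genes were called.

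Genes of the PDGF and Notch pathways moved in both directions. Of 11 measured genes of PDGF and mural cell recruitment, 4 rose and 2 fell in RNA, beside the 49.4% of all genes called. S1pr3, a sphingosine phosphate receptor, rose by 0.46, Pdgfa, a PDGF ligand, by 0.66, and Tgfb1 by 0.28 (limma adjusted p = 0.00427, 0.0173 and 0.0183). S1pr1, the endothelial sphingosine phosphate receptor, fell by 0.60 and Tek, the angiopoietin receptor, by 0.16. Pdgfb, the ligand of Pdgfrb, was the fourth to rise, by 0.25 (limma adjusted p = 0.0275), and is named after its values were seen. Its RNA was 304 ± 29.3 (SD, n = 5) in knockout and 255 ± 12.7 (SD, n = 4) in wild type.

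Of 16 Notch genes 4 rose and 3 fell in RNA, beside the 49.4% of all genes called. Jag2, a Jagged ligand, rose by 0.52, Hes1, a target gene, by 0.46, and Notch4, an endothelial receptor, by 0.46 (limma adjusted p = 0.000102, 0.00143 and 0.00581). Adam10, the protease that cuts activated receptors, fell by 0.45, and Rbpj, the DNA-binding partner of the receptor's inner domain, by 0.49 (limma adjusted p = 9.38e-05 and 0.0002), with Notch2 at -0.23 (limma adjusted p = 0.0332). Heyl and Jag1, named after their values were seen, were at 0.064 and 0.053 in RNA without passing. None of the PDGF or Notch genes passed in footprints or in efficiency, where 0.02% and 14.1% of all genes were called.

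**Figure D4:**
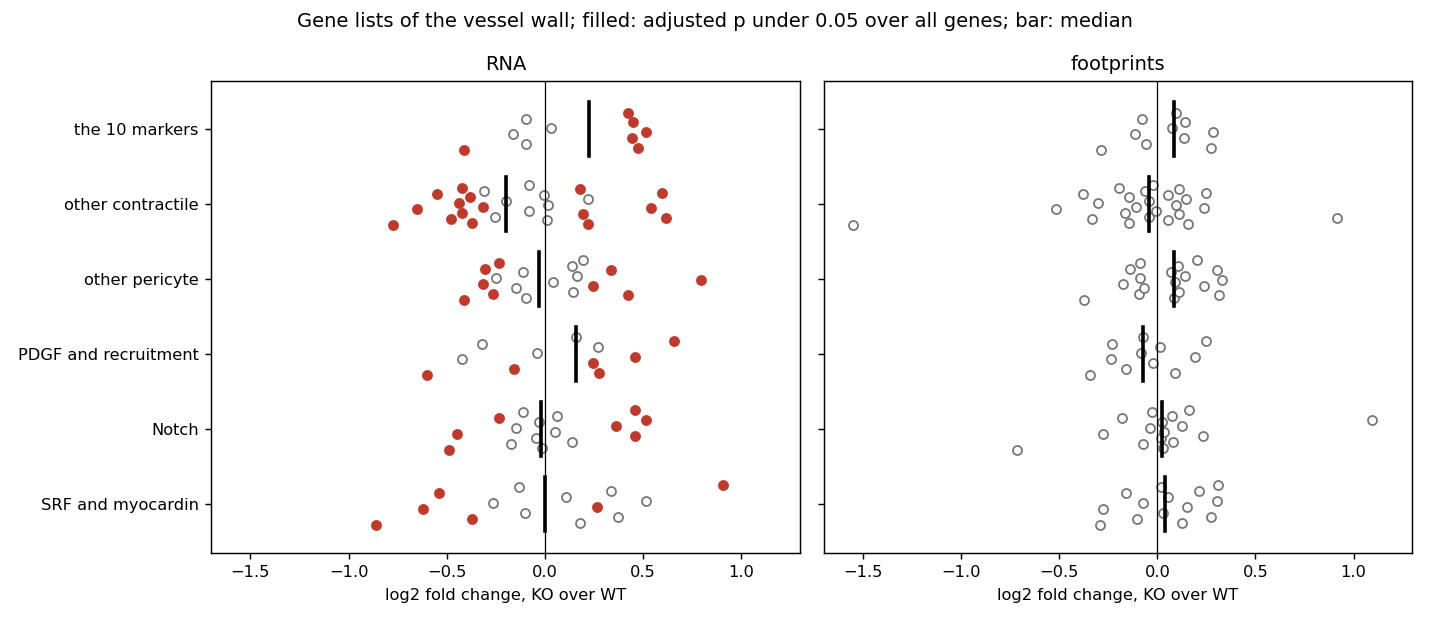
Log2 fold change, knockout over wild type (x axis), of the 10 markers and of 5 further lists of vessel wall genes (y axis) in RNA and in footprints; each point is a gene, filled where its adjusted p was below 0.05 over all genes, and black bars are medians. Filled points lie on both sides of 0 in RNA for all 6 lists, and no point is filled in footprints.

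Genes whose level followed the members across hearts were looked for among genes with a mean of at least 100. In RNA the 5 most like the members' mean were Col1a2, Chid1, Col5a1, Mmp2 and Cfp, with Pearson's r of 0.978, 0.969, 0.963, 0.957 and 0.954 over 9 hearts and 9128 genes ranked. Col1a2, Col5a1 and Mmp2 encode collagens and a matrix protease, and the 9 points share their libraries, depth and genotype. In footprints the 5 were Plod1, Nelfcd, S1pr3, Kdelr3 and Cep68, with r of 0.916 to 0.879, and no gene was in both sets. Single members followed their own mean unevenly, with r in RNA of 0.838 for Tagln and 0.768 for Notch3 but -0.368 for Acta2, and in footprints of 0.784 for Cnn1 but -0.349 for Mylk.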

How the data were processed

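Poly-A RNA, from TRIzol extracts, went into an unstranded TruSeq protocol and footprints into a NEXTflex protocol for small RNA, per the labels. The submitters' processing notes name GRCm38 (mm10), HTSeq, DESeq2 and STAR 2.7.1a, with no role or order. The authors deposited a normalized read signal per gene and library, the footprint over RNA ratio of each heart, and, per the file headers, a log2 fold change, a p-value and a class for each gene. Dividing the deposited signal by its smallest step gave whole reads for 100% of values in each of the 18 libraries (tolerance 0.01 reads), which is the source of the depths given. Count tests used footprint reads only, because knockout RNA libraries hold too few low values for a further check of their step on low values alone. The deposited ratios differed from the quotient computed here by at most 0.0497%.

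limma 3.58.1 in R 4.3.3 was run on log2(value + 1) with its trend option, for genes with a mean of at least 10, after tests on simulated data. Alternatives were other pseudocounts and filters, TMM factors, quantile normalization, the deposited fold changes, leaving out each heart, edgeR 4.0.16 and DESeq2 1.42.0. The labels tie both libraries of a heart number to 1 animal, so the replicate block pairs them. Deviations from the genotype mean correlated at 0.208 to 0.502 within a heart over 8066 genes, against a median of -0.0753 between hearts. Replicate libraries differed by more than sampling noise. P-values of the RNA and footprint tests measure the spread between hearts. The main efficiency test has no term for the heart and counts both libraries of a heart as separate. Its p-values measure the spread between libraries, while those of the replicate block measure the spread between hearts.

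Of the gene IDs, 10560 matched a symbol. The 10 members and 13 further lists were chosen with earlier results of these data known. All members are named, and of each list up to 3 genes a direction by smallest adjusted p. For the lists of other cell types not every such gene is given, and some genes of the other lists are not reported here.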

Additional observations from a re-analysis of the deposited data

Results flagged for a closer look

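Of the 60 sets of 4 or 5 hearts searched (10 members, 3 measures, 2 genotypes), 4 had a heart far from the others of its genotype, and chance flags about 1 in 20 such sets. Knockout heart 6 stood apart in 3 of them. Its Acta2 footprints were 12719 normalized reads, against 9646 for the next knockout heart and 8452 for the lowest. Its Acta2 efficiency was 2.84, against 2.35 for the next and 2.26 for the lowest. Its Cnn1 footprints were 305, against 197 for the next and 156 for the lowest. The fourth was Tagln RNA in knockout heart 9, at 396 normalized reads below the other knockouts at 431 to 444. Without heart 6 the Acta2 and Cnn1 footprint log2 fold changes were -0.39 and -0.023, against -0.29 and 0.14 with all hearts, and neither passed in either fit.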

How the results depend on the processing

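The 6 RNA calls held under every alternative, each left-out heart included. The count of members called in footprints was 0 throughout, which says nothing of stability in an assay where so few genes passed. The number of members lower in efficiency was 2 with all hearts. It was 1 with a pseudocount of 5, with hearts paired as a replicate block and with a minimum mean of 10 in each assay (added after seeing the data), where Pdgfrb had adjusted p of 0.0529, 0.0563 and 0.0605, and 0 to 1 without single hearts. The block changed no other call of a member. Only values that had not passed turned sign. Mylk efficiency was -0.040 with quantile normalization and -0.022 to 0.096 without single hearts. Cnn1 ranged from -0.35 to 0.090 in RNA and -0.023 to 0.36 in footprints, and Rgs5 RNA from -0.087 to 0.15. Over all genes, footprint calls numbered 2 with limma, 6 with DESeq2, 6 in the authors' deposited table and 0 with no filter on low values.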
